A study of Mus musculus with 2 samples.

Results

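The genes described here are 32 genes of sterol and fatty acid synthesis. They were taken by symbol from the 31053 genes that both count tables list, and each symbol was found once. They comprise 18 enzymes of the sterol pathway from acetyl-CoA towards cholesterol, 6 genes that control that pathway or carry sterol within the cell, and 8 enzymes that make, elongate or desaturate fatty acids. Their transcripts were counted by droplet-based single cell RNA sequencing of islet cells, which tags each captured transcript with a unique molecular identifier (UMI). There was 1 library of WT and 1 library of *Npc1*-/- (labelled Npc1KO) islets. Both came from mice aged 2 weeks, each from islets of 3 pooled female mice according to the labels. The study's methods describe WT and homozygous littermates of matings between heterozygotes on the C57BL/6J background, so the deletion was present in all tissues and not in β cells alone. With 1 library per genotype there is no replicate, so no difference between genotypes was tested, and all intervals are 95% intervals for counting error only, exact except for differences between classes, which use a normal approximation. The question was which steps of sterol and of fatty acid synthesis differed in transcript level between *Npc1*-/- and WT islet cells, and in which cells.

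Cells obtain cholesterol by synthesis and from lipoproteins taken up through receptors. Cholesterol from lipoproteins is freed in the lysosome and leaves it through NPC1. Sterol in the endoplasmic reticulum is sensed by SCAP, which is held there by INSIG1 or INSIG2 while sterol is plentiful. When sterol is low, SCAP escorts the transcription factors SREBP1 and SREBP2, encoded by *Srebf1* and *Srebf2*, to the Golgi, where they are cut and released to the nucleus. SREBP2 acts mostly on genes of sterol synthesis and uptake, and one form of SREBP1 acts mostly on genes of fatty acid synthesis. β cells use the citrate of their active mitochondria for acetyl-CoA, the substrate shared by both pathways. These statements are background and not results of the present data.

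Cell barcodes passed with over 1000 genes and less than 50000 UMIs, of which below 10% could be mitochondrial and no more than 0.1% haemoglobin. This left 4628 of 8569 in WT and 4269 of 7646 in *Npc1*-/-, with 94096566 and 94392651 UMIs. The libraries shared 12 barcode sequences, 3 of them among kept barcodes. A barcode was placed in a hormone-leading class by the hormone with the largest share when that share was at least 10% of its UMIs, and otherwise in an endothelial-, stellate-, mesenchymal- or macrophage-like class by its marker genes. The insulin-leading class held 1833 WT and 1826 *Npc1*-/- barcodes, with 54792591 and 54150278 UMIs and medians of 30417 and 30094 UMIs. The other hormone-leading classes held 1048 and 857 (glucagon), 189 and 141 (somatostatin) and 411 and 442 (*Ppy* and *Pyy*, here PP) barcodes. The classes without a leading hormone held 426 and 439 endothelial-like, 232 and 252 stellate-like, 65 and 65 mesenchymal-like, and 57 and 33 macrophage-like barcodes. In these 4 classes no gene of the class's own marker list was at 0 in either library. The same lists placed the barcodes, so this is no check of the class names. Most somatostatin-leading barcodes (145 of 189 in WT and 104 of 141 in *Npc1*-/-) held under 20% of somatostatin, and their median share of *Ppy* and *Pyy* was 10.6% in WT and 11.9% in *Npc1*-/-, so this class held barcodes with 2 hormones. *Npc1*, the targeted gene, had 319 UMIs in WT and 143 in *Npc1*-/- insulin-leading cells. Against the median gene its log2 ratio was -1.26 (-1.55 to -0.97). It was lower but still counted in the *Npc1*-/- library. The counts come from the transcripts' 3′ ends and the deleted part of the gene is not given in the sources used here, so this is no complete check of the label.

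To give a level, the UMIs of a gene were added up within a class of 1 library and divided by all UMIs there, per 1e6 (CPM). Differences are log2 ratios of *Npc1*-/- over WT CPM after adding 0.5 counts, relative to the median gene of the class. A gene is called tested below when it reached 5 CPM in either library, which means a comparison by counting error and not across replicates. It was called higher or lower when it lay at least 25% above the median gene, or below it by the same factor, and its interval excluded it. In insulin-leading cells 7.46% of 8858 tested genes were called higher and 6.29% lower, which is the background for the counts below. Hormone genes took 57.8% of the UMIs in WT and 55.8% in *Npc1*-/- insulin-leading cells. The median gene had a log2 ratio of 0.12 in CPM, 0.06 when totals excluded hormone genes and 0.00 with the TMM factor. Of the genes called, 54.3% were higher with the median gene as reference, 86.5% with plain CPM, 71.6% without hormone genes and 55.1% with TMM.

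In insulin-leading cells the members stood to the higher side in *Npc1*-/-. Of the 32, 28 reached 5 CPM. Of these 28, 11 were called higher and 0 lower, beside the 7.46% and 6.29% of all genes, and 24 lay above the median gene. The called genes were spread over all 3 groups. They were 4 sterol enzymes (*Hmgcs1*, *Idi1*, *Lss* and *Hsd17b7*), 3 control genes (*Insig1*, *Srebf2* and *Stard4*) and 4 fatty acid enzymes (*Acaca*, *Fasn*, *Elovl6* and *Fads1*). Of these, *Hsd17b7* reached 5 CPM only in *Npc1*-/-, so it was tested only because it was high there. The median log2 ratio of the tested members was 0.17 for the sterol enzymes, 0.32 for the control genes and 0.38 for the fatty acid enzymes, where the median of all tested genes is 0 by construction and 10% of them lay above 0.28. The 4 members below 5 CPM were *Acat2*, *Tm7sf2*, *Scd1* and *Fads2*.

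**Figure D1:**
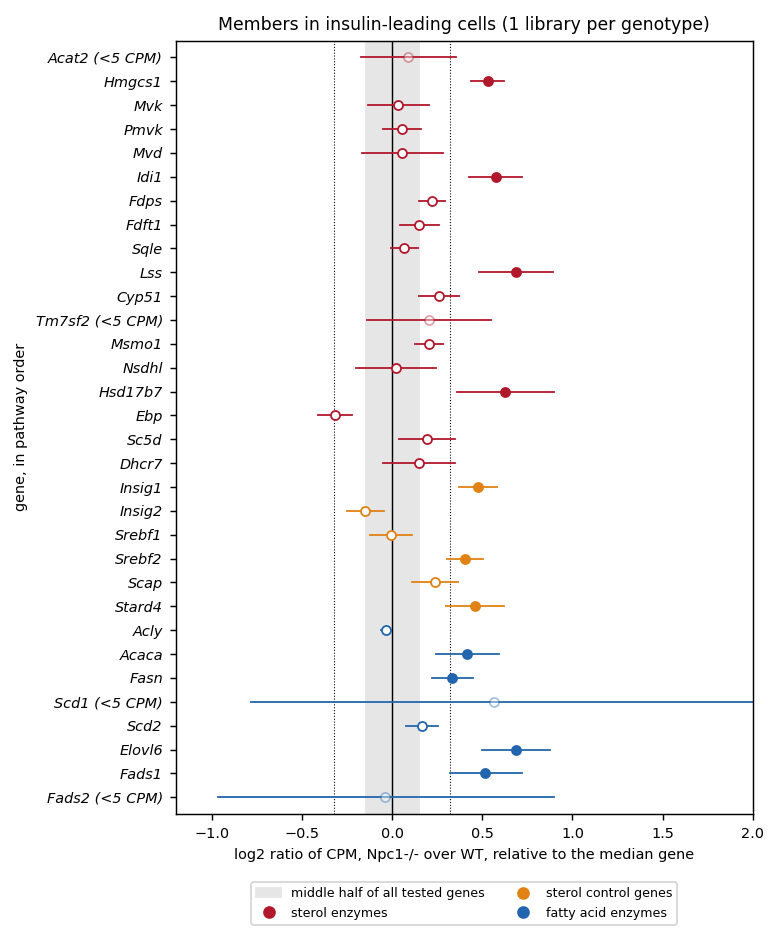
Log2 ratio of CPM in *Npc1*-/- over WT insulin-leading cells for each member, relative to the median gene, with 95% counting intervals. Filled points are called higher, dotted lines mark the limit for a call, the grey band is the interquartile range of all tested genes, and faded points are below 5 CPM. The 11 filled points, from *Fasn* at 0.33 to *Elovl6* at 0.69, lie right of the band, and *Ebp* at -0.32 is the lowest member.

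Along the first steps of the sterol pathway, which lead from acetyl-CoA to mevalonate and on to isoprenoid units, 2 enzymes stood out. *Hmgcs1* (ENSMUSG00000093930, chromosome 13, 119690379 to 119708260 in mm10, as are all positions here), the cytosolic HMG-CoA synthase, had 1650 UMIs in WT and 2558 in *Npc1*-/- (30.1 and 47.2 CPM). Relative to the median gene it was 1.44-fold higher in *Npc1*-/-, with a log2 ratio of 0.53 (0.44 to 0.62). *Idi1* (ENSMUSG00000058258, chromosome 13, 8885501 to 8892451), which interconverts the isoprenoid units, had 617 and 987 UMIs (11.3 and 18.2 CPM), a log2 ratio of 0.57 (0.43 to 0.72). The kinases and the decarboxylase between them stayed near the median gene. *Mvk* had 556 and 612 UMIs (10.1 and 11.3 CPM) and a log2 ratio of 0.04 (-0.13 to 0.20). *Pmvk* had 1408 and 1570 UMIs (25.7 and 28.99 CPM) and 0.05 (-0.05 to 0.16), and *Mvd* 314 and 351 UMIs (5.73 and 6.48 CPM) and 0.06 (-0.17 to 0.28). The intervals of these enzymes all reach the median gene, and those of *Hmgcs1* and *Idi1* do not. *Acat2*, which joins acetyl-CoA units at the start of the pathway, had 230 and 263 UMIs, or 4.20 and 4.86 CPM.

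The next enzymes build squalene and close it into lanosterol. *Fdps*, farnesyl diphosphate synthase, had 2872 and 3594 UMIs (52.4 and 66.4 CPM) and a log2 ratio of 0.22 (0.15 to 0.29), above the median gene but short of a call. Its value is uncertain, since 84.0% of the 31-base words in the last 500 bases of its transcripts also occur in other genes, 63.8% in *Gm3571*, and the counting could split or drop such reads. *Fdft1*, squalene synthase, had 1299 and 1549 UMIs (23.7 and 28.6 CPM) and a log2 ratio of 0.15 (0.04 to 0.26). *Sqle*, squalene epoxidase, had 2926 and 3295 UMIs (53.4 and 60.8 CPM) and 0.07 (-0.003 to 0.14). Neither was called. *Lss* (ENSMUSG00000033105, chromosome 10, 76531588 to 76557138), lanosterol synthase, which follows directly on *Sqle*, had 319 and 551 UMIs, or 5.82 and 10.2 CPM. Relative to the median gene it was 1.61-fold higher in *Npc1*-/-, the largest ratio among the sterol enzymes in these cells, with a log2 ratio of 0.69 (0.48 to 0.89).

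After lanosterol, methyl groups are removed and double bonds are moved and reduced. Here *Hsd17b7* (ENSMUSG00000026675, chromosome 1, 169949535 to 169969241, minus strand), a reductase of the step that removes methyl groups, was called higher, with 184 and 305 UMIs (3.36 and 5.63 CPM) and a log2 ratio of 0.63 (0.36 to 0.90). *Cyp51*, lanosterol demethylase, had 1160 and 1493 UMIs (21.2 and 27.6 CPM) and stood at 0.26 (0.15 to 0.37). *Msmo1*, the methyl sterol oxidase, had 2415 and 2989 UMIs (44.1 and 55.2 CPM) and stood at 0.21 (0.13 to 0.28), and *Sc5d*, a sterol desaturase, 625 and 768 UMIs (11.4 and 14.2 CPM) and 0.19 (0.04 to 0.35). These 3 lay above the median gene but short of a call. *Nsdhl*, a dehydrogenase of methyl group removal, with 320 and 349 UMIs (5.84 and 6.45 CPM) at 0.02 (-0.20 to 0.25) and *Dhcr7*, a last-step reductase, with 381 and 454 UMIs (6.95 and 8.38 CPM) at 0.15 (-0.05 to 0.35) did not differ from it beyond counting error. *Tm7sf2*, a sterol reductase, had 131 and 162 UMIs, or 2.39 and 2.99 CPM. *Ebp*, the sterol isomerase, went the other way. It had 2019 UMIs in WT and 1739 in *Npc1*-/- (36.8 and 32.1 CPM), and its log2 ratio of -0.32 (-0.41 to -0.22) fell just short of a call. Of the 16 sterol enzymes at 5 CPM or more, 9 had intervals above the median gene and 1, *Ebp*, below it, where 26.7% and 29.2% of all tested genes did.

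The promoters of some of these genes are shown as a description of their sequence. RefSeq windows (GRCm38.p6) of 300 bases, from 250 before to 50 after the start, were found for 25 of the 32 members. They were searched on both strands for the SREBP site in the form TCACNCCAC, the NF-Y box CCAAT, the Sp1 box GGGCGG and the E-box CACGTG. Only these exact strings were searched, so a member without TCACNCCAC may still hold another form of the SREBP site. The CCAAT box occurred in 20 of the 25 members (80%), in 14 of 15 sterol enzymes but 2 of 5 fatty acid enzymes, and in 41.1% of 27025 genes. GGGCGG occurred in 21 of 25 (84%) and in 38.2% of all genes, CACGTG in 5 of 25 (20%) and 8.09%, and TCACNCCAC in 1 of 25 (4%), *Hmgcs1*, and 1.44%. All genes here are every gene with a window, counted in these cells or not. Shares over the genes tested in these cells were not computed, so no shared regulation can be read from the percentages. The sequences below run 5′ to 3′ up to the start and leave out bases inside the annotated gene. Capitals mark the motifs in either orientation, and no marked motif overlaps another. The first 4 genes were called higher in at least 3 of the 4 hormone-leading classes, *Hsd17b7* in classes where only *Npc1*-/- reached the floor. *Idi1* was too and has a window, but too little of it lay outside the annotated gene to be shown. *Ebp* and *Acly*, called higher in none, were picked for contrast and do not stand for all uncalled members. The windows are *Hmgcs1* at chr13:119690101-119690350 (plus strand), *Lss* at chr10:76531355-76531587 (plus), *Hsd17b7* at chr1:169969242-169969455 (minus), *Insig1* at chr5:28071162-28071362 (plus), *Ebp* at chrX:8193513-8193762 (minus) and *Acly* at chr11:100528001-100528250 (minus).
*Hmgcs1*: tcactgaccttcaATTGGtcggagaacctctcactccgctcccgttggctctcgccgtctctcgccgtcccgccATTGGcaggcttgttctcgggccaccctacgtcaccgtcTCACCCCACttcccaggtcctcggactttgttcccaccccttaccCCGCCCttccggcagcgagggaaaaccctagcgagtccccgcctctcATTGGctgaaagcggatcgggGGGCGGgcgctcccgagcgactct
*Lss*: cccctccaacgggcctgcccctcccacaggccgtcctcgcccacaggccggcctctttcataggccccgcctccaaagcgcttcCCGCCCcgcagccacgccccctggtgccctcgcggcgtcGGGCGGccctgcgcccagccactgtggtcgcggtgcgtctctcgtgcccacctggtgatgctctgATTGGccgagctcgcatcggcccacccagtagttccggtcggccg
*Hsd17b7*: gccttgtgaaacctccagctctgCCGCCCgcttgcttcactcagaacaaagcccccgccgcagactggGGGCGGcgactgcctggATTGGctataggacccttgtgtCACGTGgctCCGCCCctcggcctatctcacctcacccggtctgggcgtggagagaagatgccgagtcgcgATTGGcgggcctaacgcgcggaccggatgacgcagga
*Insig1*: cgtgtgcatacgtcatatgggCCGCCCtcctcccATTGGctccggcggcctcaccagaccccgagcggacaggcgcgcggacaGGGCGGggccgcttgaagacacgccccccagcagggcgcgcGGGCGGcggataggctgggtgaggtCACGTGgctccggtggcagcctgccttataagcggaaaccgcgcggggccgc
*Ebp*: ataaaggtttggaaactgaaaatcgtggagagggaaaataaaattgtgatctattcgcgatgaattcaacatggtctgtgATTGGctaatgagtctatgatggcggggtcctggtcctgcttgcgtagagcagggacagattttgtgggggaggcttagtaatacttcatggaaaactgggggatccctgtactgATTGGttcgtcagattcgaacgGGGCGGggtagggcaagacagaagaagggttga
*Acly*: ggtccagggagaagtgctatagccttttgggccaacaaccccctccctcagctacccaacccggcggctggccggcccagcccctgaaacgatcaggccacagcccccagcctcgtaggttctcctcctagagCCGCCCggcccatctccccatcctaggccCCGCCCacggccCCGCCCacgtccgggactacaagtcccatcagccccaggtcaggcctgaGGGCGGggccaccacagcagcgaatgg
The printed part of the *Hmgcs1* window holds the single match to TCACNCCAC, 3 CCAAT boxes and 2 GGGCGG boxes. A further CCAAT box and a further GGGCGG box lie after its start. *Ebp*, which was not called, holds 2 CCAAT boxes and 1 GGGCGG box, and the printed part of *Acly* holds 4 GGGCGG boxes and no CCAAT box. The 1 CCAAT box counted for *Acly* lies after the start. A match is a description of the sequence and not a site shown to be bound.

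The control genes split in the same class of cells. *Insig1* (ENSMUSG00000045294, chromosome 5, 28071363 to 28078662), which retains SCAP and is itself a target of SREBP2, had 1224 UMIs in WT and 1830 in *Npc1*-/- (22.3 and 33.8 CPM) and a log2 ratio of 0.48 (0.37 to 0.58). Its relative *Insig2*, which retains SCAP as well, had 1619 and 1569 UMIs (29.5 and 28.98 CPM) and a log2 ratio of -0.15 (-0.25 to -0.05). The interval of *Insig1* lies wholly above that of *Insig2*. The same held for the SREBP genes. *Srebf2* (ENSMUSG00000022463, chromosome 15, 82147181 to 82205379) had 1455 and 2068 UMIs, or 26.6 and 38.2 CPM, and a log2 ratio of 0.40 (0.31 to 0.50), whereas *Srebf1* had 1204 and 1288 UMIs (21.97 and 23.8 CPM) and a log2 ratio of -0.01 (-0.12 to 0.11). *Scap*, with 885 and 1121 UMIs (16.2 and 20.7 CPM), stood at 0.24 (0.11 to 0.37), short of a call. *Stard4* (ENSMUSG00000024378), whose protein carries sterol between membranes, had 550 and 812 UMIs (10.04 and 14.995 CPM) and a log2 ratio of 0.46 (0.30 to 0.62).

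Among the fatty acid enzymes the first step was not called, and 4 enzymes of later steps were called higher. *Acly*, ATP citrate lyase, which makes acetyl-CoA from citrate for both pathways, had 19735 UMIs in WT and 20694 in *Npc1*-/- (360.2 and 382.2 CPM). Its log2 ratio was -0.03 (-0.06 to -0.01), so the enzyme lay within a narrow interval close to the median gene. *Acaca* (ENSMUSG00000020532, chromosome 11, 84129672 to 84401651), acetyl-CoA carboxylase, had 454 and 651 UMIs (8.29 and 12.02 CPM) and a log2 ratio of 0.42 (0.24 to 0.59). *Fasn* (ENSMUSG00000025153, chromosome 11, 120805846 to 120824547, minus strand), fatty acid synthase, had 1080 and 1462 UMIs (19.7 and 27.00 CPM) and a log2 ratio of 0.33 (0.22 to 0.45), at 1.26-fold barely past the limit. *Elovl6* (ENSMUSG00000041220, chromosome 3, 129532355 to 129638495), which elongates long-chain fatty acids, had 375 and 648 UMIs, or 6.84 and 11.97 CPM, and a log2 ratio of 0.69 (0.50 to 0.87). *Fads1* (ENSMUSG00000010663, chromosome 19, 10182888 to 10196877), a desaturase of polyunsaturated fatty acids, had 342 and 526 UMIs (6.24 and 9.71 CPM) and a log2 ratio of 0.52 (0.32 to 0.72). The stearoyl-CoA desaturase *Scd2* had 1885 and 2272 UMIs (34.4 and 41.96 CPM) and a log2 ratio of 0.17 (0.08 to 0.26). Its relative *Scd1* had 8 and 13 UMIs (0.15 and 0.24 CPM), and the desaturase *Fads2* 21 and 22 (0.38 and 0.41 CPM), too few to show a difference at this depth.

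Other measures differed between the libraries in the same cells. The 5 mature β cell markers summed to 1126 CPM in WT and 919 CPM in *Npc1*-/- insulin-leading cells. Their part in the members' ratios was not tested. The 8 heat shock and immediate early genes summed to 782 CPM in WT and 273 CPM in *Npc1*-/- insulin-leading cells, with 0 of the 8 at 0 in either, *Ppy* and *Pyy* to 9595 and 16882 CPM, the 5 acinar markers to 91.4 and 21.8 CPM, and the 10 macrophage markers to 28.1 and 44.3 CPM, with 2 of the 10 at 0 in WT. Without the 446 WT and 70 *Npc1*-/- barcodes high in stress genes, 10 of the 11 members remained called higher, *Hmgcs1* at 0.55 and *Lss* at 0.59, and *Fasn* at 0.26 did not. Of all tested genes 7.92% were called higher there. In the 1342 WT and 1005 *Npc1*-/- barcodes with under 1% of *Ppy* and *Pyy* all 11 remained called, *Elovl6* at 0.73 and *Insig1* at 0.46. *Cyp51* was called higher too and *Ebp* lower, beside 8.53% and 7.64% of all tested genes. In the 491 and 821 barcodes with 1% or more, *Hsd17b7* (0.45) and *Fasn* (0.31) were no longer called, while *Insig1* stood at 0.72 and *Elovl6* at 1.02. *Cyp51* and *Fdps* were newly called higher, beside 8.81% of all tested genes. Without cycling barcodes the call of *Fasn* (0.31) was lost and the other 10 remained, beside 7.37%. These counts follow members already called in the same cells, and the part of such differences in the calls was not tested.

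Genes of the pathway outside the 32 were taken from fixed lists. Of 8 further genes of sterol synthesis, 6 were tested, 1 was called higher and 1 lower, and 5 lay above the median gene. The lower one was *Por*, the reductase that feeds electrons to CYP51 and squalene epoxidase among others, at -0.33 (-0.40 to -0.26). Of 6 genes of lipoprotein uptake, 4 were tested and all 4 were called higher, among them the receptors *Vldlr* at 0.34 and *Lrp8* at 0.34 and the HDL receptor *Scarb1* at 0.36. Of 7 genes of LXR signalling and sterol efflux, *Abca1*, the cholesterol exporter, was called higher at 0.53 (0.44 to 0.62) and *Apoe* lower at -0.33 (-0.46 to -0.19). Of 6 further genes of SREBP control, 5 were tested and 0 were called, at a median of -0.02. Of 19 further fatty acid genes, 11 were tested and only *Acsl4*, an acyl-CoA synthetase, was called higher (0.43), with a median of 0.07. The median of the fatty acid genes beside the 8 members thus lay near the median gene, and the 4 tested genes of lipoprotein uptake above it.

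In the other hormone-leading classes, with fewer UMIs, more sterol enzymes and fewer fatty acid enzymes were called higher than in insulin-leading cells. The reference differs by class. In CPM the median gene stood at a log2 ratio of 0.12 in insulin-leading cells. It stood at 0.03, 0.01 and 0.06 in glucagon-, somatostatin- and PP-leading cells. Counts and differences between classes depend on this, and with plain CPM more sterol enzymes were called in insulin-leading cells, as given below. In glucagon-leading cells 12 of 29 tested members were called higher and 0 lower, where 3.23% and 3.97% of all tested genes were. These were 9 sterol enzymes, 3 control genes and 0 fatty acid enzymes. *Msmo1* had 278 UMIs in WT and 465 in *Npc1*-/- (15.03 and 27.1 CPM), a log2 ratio of 0.82 (0.60 to 1.04). *Stard4* had 174 and 303 UMIs and stood at 0.88 (0.60 to 1.16), *Insig1* at 0.67 (0.40 to 0.94), *Idi1* at 0.53 (0.24 to 0.82) and *Hmgcs1* at 0.45 (0.25 to 0.65). Enzymes that were close to the median gene in insulin-leading cells were among those called here, *Mvk* at 0.44 (0.19 to 0.68), *Fdft1* at 0.37 (0.16 to 0.59) and *Sqle* at 0.37 (0.20 to 0.55). *Srebf1* was called higher at 0.37 (0.15 to 0.59), from 304 and 372 UMIs. All 6 tested fatty acid enzymes lay above the median gene without a call, with a median of 0.20, and *Acly* stood at 0.02 (-0.05 to 0.08) and *Fasn* at 0.09 (-0.07 to 0.25). The 8 stress genes summed to 2103 CPM in WT and 1066 CPM in *Npc1*-/- glucagon-leading cells, and to 1998 and 1036 CPM in PP-leading cells. Their part in these ratios was not tested.

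In PP-leading cells 14 of 29 tested members were called higher and 0 lower, beside 5.15% and 5.39% of all genes. They were 9 sterol enzymes, 3 control genes and 2 fatty acid enzymes. *Hmgcs1* had 194 and 397 UMIs, or 23.8 and 42.4 CPM, and a log2 ratio of 0.77 (0.52 to 1.03). *Insig1* stood at 0.85 (0.51 to 1.22), *Srebf2* at 0.75 (0.48 to 1.02), *Lss* at 0.75 (0.20 to 1.33), *Hsd17b7* at 0.73 (0.16 to 1.34) and *Msmo1* at 0.58 (0.35 to 0.81). The called fatty acid enzymes were *Fads1* at 0.66 (0.25 to 1.08) and *Elovl6* at 0.59 (0.15 to 1.06), and *Acly* stood at 0.01 (-0.09 to 0.10). All 6 tested fatty acid enzymes lay above the median gene, 4 of them with intervals above it. The median of the 6 was 0.31, beside 0.38 in insulin-leading cells. In the smaller somatostatin-leading class 8 of 28 tested members were called higher and 1 lower, beside 4.01% and 4.25%. Among them *Hsd17b7* had 12 and 30 UMIs and stood at 1.43 (0.46 to 2.57), *Sqle* 88 and 129 UMIs and 0.70 (0.30 to 1.11), and *Acaca*, the only fatty acid enzyme called there, 22 and 38 UMIs and 0.92 (0.14 to 1.76). *Insig2* was called lower, with 146 and 96 UMIs and a log2 ratio of -0.45 (-0.84 to -0.08). In somatostatin-leading cells the stress genes summed to 1897 CPM in WT and 968 CPM in *Npc1*-/-, and the 10 macrophage markers to 172 and 297 CPM, with 5 of the 10 at 0 in WT and 0 in *Npc1*-/-. Their part was not tested. When a somatostatin share of 20% was required, 0 members were called in either direction, beside 2.17% and 2.37% of all tested genes. This left out 145 WT and 104 *Npc1*-/- barcodes, so far fewer molecules were counted.

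Across the 4 hormone-leading classes 3 members were called higher in every class, *Hmgcs1*, *Idi1* and *Insig1*, among 18 of 8464 genes tested in all 4 (0.213%). In at least 3 of the 4 classes 8 members were called higher, among 70 such genes (0.827%). Besides those 3 they were *Fdps*, *Sqle*, *Lss*, *Hsd17b7* and *Stard4*, that is 6 sterol enzymes, 2 control genes and 0 fatty acid enzymes. *Hsd17b7* lay below 5 CPM in WT insulin-, somatostatin- and PP-leading cells (3.36, 4.42 and 4.66 CPM). It passed the floor in these classes only through *Npc1*-/-, where it was higher, so its count here is weak. *Insig2* was the only member below the median gene in all 4 classes. The classes come from the same 2 libraries, so a call in several classes is no replicate. The somatostatin-leading class held barcodes with 2 hormones. At a somatostatin share of 20%, 0 members were called higher there, beside 2.17% of all tested genes, so the counts over classes depend on that limit. In 224 comparisons of a member's log2 ratio between insulin-leading cells and another class, the difference for *Msmo1* was -0.61 (-0.84 to -0.39) against glucagon-leading cells, lower in insulin-leading cells, for *Mvk* -0.40 (-0.69 to -0.11), for *Sqle* -0.30 (-0.49 to -0.11) and for *Ebp* -0.35 (-0.52 to -0.19). For *Elovl6* it was 0.43 (0.09 to 0.76) and for *Fasn* 0.24 (0.05 to 0.44), higher in insulin-leading cells. Over all 8591 genes tested in both classes, the interval of the difference from glucagon-leading cells lay above 0 for 13.5% and below it for 17.2%. Beside this it lay above 0 for 1 of 16 tested sterol enzymes and below it for 5, and above 0 for 3 of 6 tested fatty acid enzymes and below it for 0. Against PP-leading cells it lay above 0 for 0 of all 8 fatty acid enzymes and below it for 0. Against somatostatin-leading cells these counts were 1 and 0. For all 18 sterol enzymes they were 0 and 4 against PP-leading and 0 and 1 against somatostatin-leading cells. For these classes the shares over all genes were not computed. These intervals hold counting error only and are not corrected for their number, and the contrast of sterol with fatty acid enzymes between classes was not tested.

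**Figure D2:**
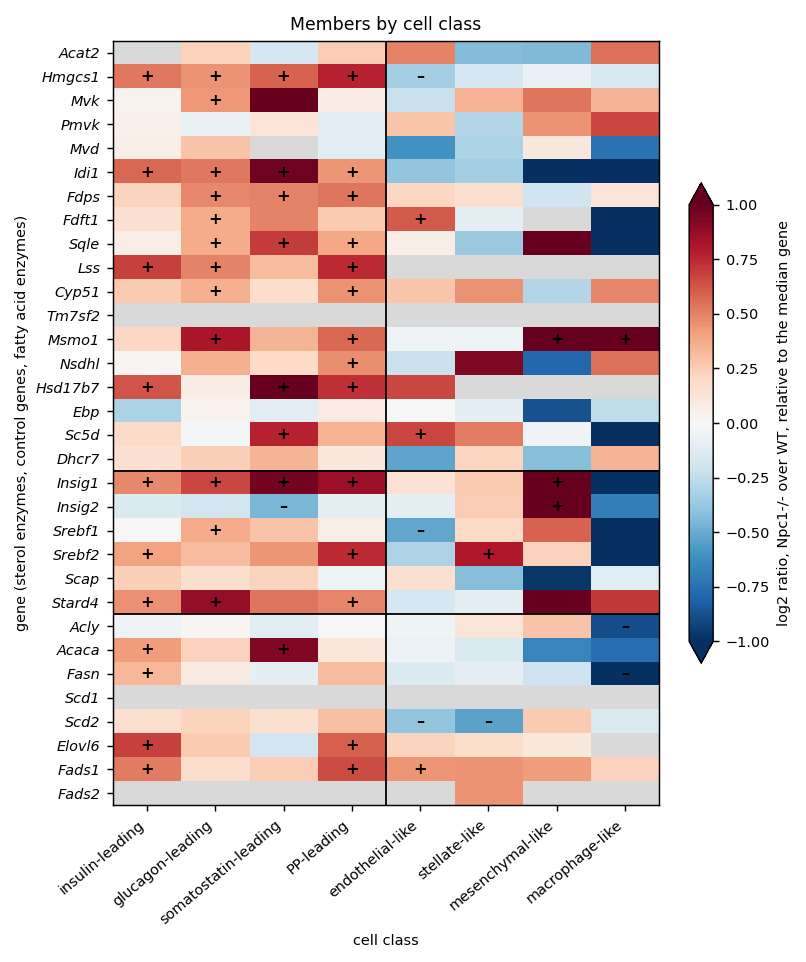
Log2 ratio of *Npc1*-/- over WT for each member (rows, in pathway order) in each cell class (columns), relative to the median gene of the class. Plus and minus signs mark members called higher or lower, and grey fields are below 5 CPM in both libraries. There are 11 plus signs in the insulin-leading column, 12 in the glucagon-leading, 8 in the somatostatin-leading and 14 in the PP-leading column, and 1 to 3 in each of the 4 columns on the right.

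**Figure D3:**
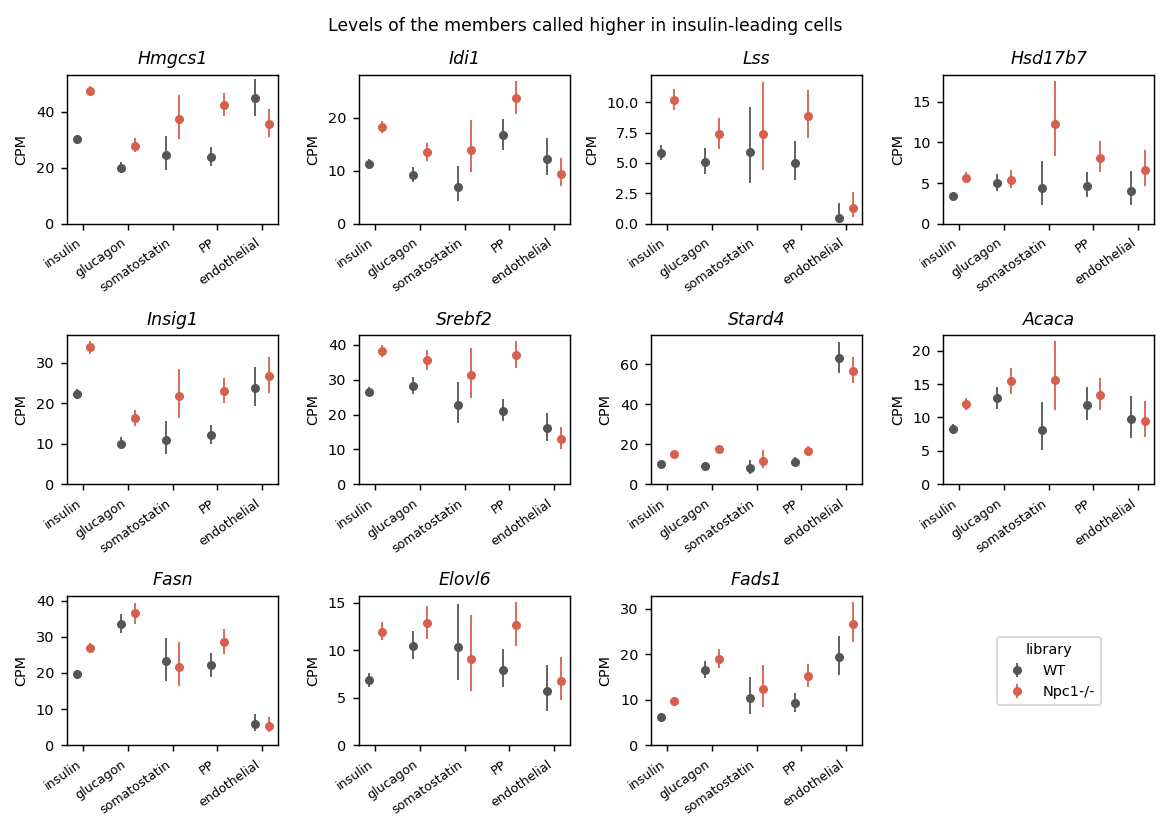
CPM of the 11 members called higher in insulin-leading cells, by class and library, with exact 95% Poisson intervals. *Hmgcs1* is higher in *Npc1*-/- in the 4 hormone-leading classes and lower in endothelial-like cells (44.7 CPM in WT and 35.7 CPM in *Npc1*-/-).

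In the classes without a leading hormone between 1 and 3 members were called higher and between 0 and 3 lower. In endothelial-like cells 3 of 28 tested members were called higher and 3 lower, beside 4.88% and 4.92% of all genes, and the median of the tested members was -0.04. *Hmgcs1*, called higher in every hormone-leading class, had 189 and 196 UMIs there, or 44.7 and 35.7 CPM, and was called lower at -0.34 (-0.64 to -0.05). *Srebf1* at -0.52 (-0.98 to -0.06) and *Scd2* at -0.39 (-0.64 to -0.15) were lower as well. *Fdft1* at 0.61 (0.07 to 1.20), *Sc5d* at 0.67 (0.10 to 1.29) and *Fads1* at 0.44 (0.05 to 0.86) were higher. The difference between insulin-leading and endothelial-like cells was 0.87 (0.57 to 1.17) for *Hmgcs1*, 0.97 (0.40 to 1.54) for *Idi1*, 0.72 (0.23 to 1.20) for *Srebf2* and 0.63 (0.35 to 0.91) for *Stard4*. Of 27 members tested in both classes the interval of this difference lay above 0 for 7 and below it for 1, beside 7.93% and 12.4% of all genes. In these barcodes the 5 β cell markers, insulin included, summed to 17750 CPM in WT and 9880 CPM in *Npc1*-/-, and the 5 acinar markers to 70.3 and 1404 CPM. Their part in these ratios was not tested.

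In stellate-like cells 1 of 28 tested members was called higher, *Srebf2* at 0.80 (0.10 to 1.56), and 1 lower, *Scd2* with 87 and 64 UMIs at -0.54 (-1.03 to -0.06), beside 4.15% and 4.64% of all genes. In mesenchymal-like cells 3 of 26 were called higher and 0 lower (4.48% and 4.72%), all from few molecules, *Msmo1* with 4 and 16 UMIs, *Insig1* with 4 and 13, and *Insig2* with 20 and 38. In macrophage-like cells *Msmo1* was called higher, with 5 and 17 UMIs, and *Acly* and *Fasn* lower, beside 6.50% and 5.82%. *Acly* had 64 UMIs in 57 WT barcodes and 27 in 33 *Npc1*-/- barcodes, or 91.4 and 47.8 CPM, and *Fasn* 13 and 2. The 5 β cell markers summed to 20960 CPM in the WT and 7423 CPM in the *Npc1*-/- macrophage-like barcodes, and *Acly* was at 360.2 CPM in WT insulin-leading cells. The part of RNA from other cells in these values was not tested.

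Levels between classes were compared within each library. Because hormone genes take most UMIs of insulin-leading cells, these levels are CPM over totals that exclude the 7 hormone genes. On this scale 17 of the 32 members were highest in insulin-leading cells in both libraries, but only 3 on plain CPM. Of the 30 members that were tested in any class these were 16 and 3, where 12.2% and 1.87% of all genes tested in any class were highest there. *Acly* stood at 854 CPM in WT and 865 in *Npc1*-/- insulin-leading cells, at 309 and 318 in glucagon-leading, at 460 and 429 in somatostatin-leading and at 365 and 369 in PP-leading cells. In the 4 classes without a leading hormone it lay between 48.2 and 134 CPM, so the order with insulin-leading cells first and these classes last was the same in both libraries. *Sqle* stood at 127 and 138 CPM in insulin-leading cells and between 1.79 and 13.4 CPM in the classes without a leading hormone. For sterol enzymes against glucagon-leading cells, the interval lay above for 12 of 16 tested in both libraries and below for 1, beside 39.4% and 16.6% of all genes. The medians over all 18 were 0.69 in WT and 0.62 in *Npc1*-/-. Against endothelial-like cells it lay above for 11 of 15 tested and below for 0, beside 47.8% and 23.4%. For fatty acid enzymes against glucagon-leading cells it lay above for 2 of 6 tested and below for 1.

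Some members had another order. *Stard4* was highest in endothelial-like cells in both libraries, at 64.4 CPM in WT and 57.4 in *Npc1*-/-, where insulin-leading cells stood at 23.8 and 33.9. The log2 ratio of insulin-leading over endothelial-like cells was -1.44 (-1.65 to -1.22) in WT and -0.76 (-0.95 to -0.57) in *Npc1*-/-. *Ebp* was highest in macrophage-like cells, at 126 and 100.003 CPM, and there insulin-leading cells lay below it by -0.54 (-0.85 to -0.20) and -0.47 (-0.84 to -0.05). *Fads1* was highest in glucagon-leading cells, at 25.3 and 29.2 CPM, beside 14.8 and 22.0 in insulin-leading cells. *Mvk* was highest in stellate-like cells, but its difference from insulin-leading cells, -0.14 (-0.58 to 0.37) in WT and -0.39 (-0.78 to 0.04) in *Npc1*-/-, did not exceed counting error. *Fasn* did not differ beyond counting error between insulin-leading and glucagon-leading cells in either library, with log2 ratios of -0.14 (-0.29 to 0.004) and 0.13 (-0.01 to 0.27). *Scd1* had at most 13 UMIs in any class and library, and 0 in somatostatin-leading and macrophage-like cells of both, which allows up to 3 counts each.

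The difference was also read per cell. Each cell with at least 5000 UMIs outside the hormone genes was thinned to 5000, which left out 88 WT and 109 *Npc1*-/- insulin-leading barcodes. The sterol enzymes then summed to a mean of 4.20 UMIs per insulin-leading cell in WT, with quartiles of 2 and 6, and 4.98 in *Npc1*-/-, with quartiles of 3 and 7. The fatty acid enzymes, most of whose UMIs come from *Acly*, summed to 5.26 and 5.57. In glucagon-leading cells the sterol enzymes stood at 2.43 and 2.92, in PP-leading cells at 3.18 and 3.94 and in somatostatin-leading cells at 2.38 and 3.24 UMIs, and the fatty acid enzymes at 2.37 and 2.50, 2.54 and 2.85, and 3.08 and 3.00. The means moved and the quartile ranges overlapped broadly in each class. They are not relative to the median gene, which itself had a log2 ratio of 0.06 in insulin-leading cells with totals outside hormone genes. A small shift, such as that of the fatty acid enzymes, can therefore not be set apart from that of a typical gene. Without thinning, the median per 10000 UMIs outside hormone genes was 7.89 in WT and 8.82 in *Npc1*-/- insulin-leading cells for the sterol enzymes, and 10.0 and 10.7 for the fatty acid enzymes. Cells of 1 library are not replicates, and no test was made over them.

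**Figure D4:**
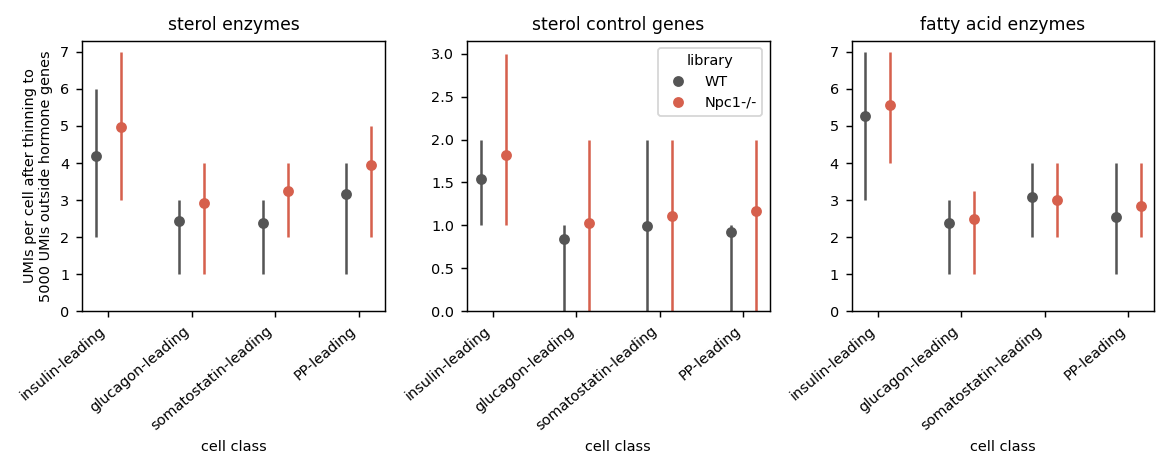
Summed UMIs per cell of the sterol enzymes, sterol control genes and fatty acid enzymes after thinning each cell to 5000 UMIs outside hormone genes, in the 4 hormone-leading classes. Points are means over cells of 1 library and lines the quartiles. The *Npc1*-/- mean of the sterol enzymes lies above the WT mean in each of the 4 classes (4.98 and 4.20 in insulin-leading cells), and the quartiles overlap.

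Cycling insulin-leading cells, those with at least 3 of 10 cell cycle markers, differed from the others in the same genes. There were 115 such barcodes in WT and 91 in *Npc1*-/-. Against the other insulin-leading cells of their library, 3 of 16 tested sterol enzymes were called higher and 6 lower in WT, beside 24.5% and 19.6% of all genes, and 3 of 17 higher and 7 lower in *Npc1*-/-, beside 22.0% and 18.4%. *Msmo1* stood at 45.9 CPM in the other and 19.4 CPM in cycling WT cells, a log2 ratio of -1.39 (-1.76 to -1.07), and at -0.99 (-1.31 to -0.71) in *Npc1*-/-. *Hmgcs1* stood at -0.62 (-0.96 to -0.31) and -0.86 (-1.19 to -0.56), *Lss* at -1.30 (-2.44 to -0.47) and -1.19 (-2.08 to -0.50), and *Srebf2* at -0.70 (-1.07 to -0.36) and -0.78 (-1.13 to -0.45). These were lower in cycling cells of both libraries. *Fads1* went the other way, with 4.98 CPM in the other and 23.1 CPM in cycling WT cells, a log2 ratio of 2.06 (1.68 to 2.41), and 1.14 (0.73 to 1.501) in *Npc1*-/-. *Ebp* at 0.74 (0.54 to 0.93) and 0.61 (0.36 to 0.84), *Stard4* at 0.99 (0.62 to 1.33) and 0.66 (0.29 to 0.99), *Mvk* at 0.60 and 0.51 and *Acat2* at 1.30 and 0.70 were higher as well. *Acat2* lay below 5 CPM in the other cells of WT (3.75 CPM) and *Npc1*-/- (4.64 CPM), as did *Fads1* in WT. There they passed the floor only through cycling cells, where they were higher. *Lss* in WT was at 2.62 CPM in cycling cells and passed only through the other cells. These calls are therefore weak. The members named lay in the same direction in both libraries. Sterol enzymes called higher were no larger a share than among all genes. Of 6 tested control genes 1 was called higher and 2 lower in WT, and 1 higher and 3 lower in *Npc1*-/-. Of 6 tested fatty acid enzymes 1 was called higher and 2 lower in WT, and 1 higher and 1 lower in *Npc1*-/-.

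In glucagon-leading cells 5 of 17 tested sterol enzymes were called higher and 1 lower in WT, beside 23.2% and 16.7% of all genes. In *Npc1*-/- 2 of 17 were called higher and 4 lower, beside 21.2% and 15.7%. Of 6 tested control genes 2 were higher in WT and 1 in *Npc1*-/-, with 0 lower in either. Of the fatty acid enzymes 3 of 7 were higher and 2 lower in WT, and 1 of 6 higher and 0 lower in *Npc1*-/-. *Fads2*, among those higher in WT, passed the floor only through cycling cells. *Ebp* (1.09 and 0.91), *Stard4* (1.23 and 0.60) and *Fads1* (0.89 and 0.61) were higher in cycling cells of both libraries, as in insulin-leading cells, and *Hmgcs1* (-0.50 and -0.66) was lower in both. *Cyp51* was called higher in WT, 0.50 (0.002 to 0.95), and lower in *Npc1*-/-, -0.91 (-1.59 to -0.35).

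**Figure D5:**
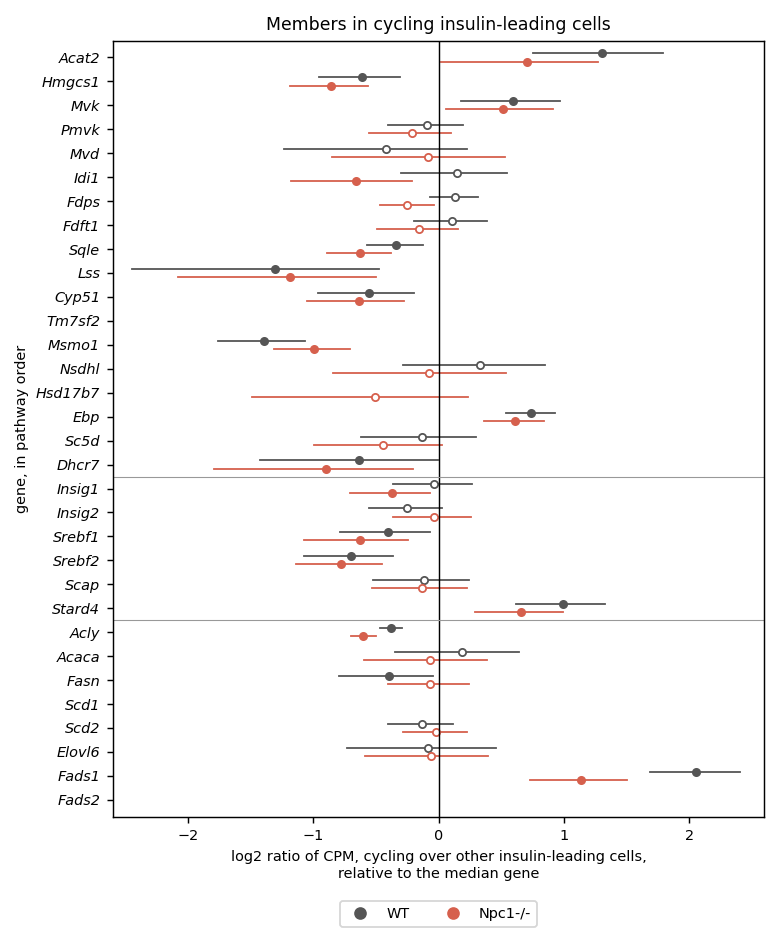
Log2 ratio of CPM in cycling over other insulin-leading cells of the same library for each member, relative to the median gene, with 95% counting intervals. Filled points are called, and members below 5 CPM in both sets of cells have no point. *Msmo1*, *Lss* and *Hmgcs1* lie left of 0 and *Fads1*, *Stard4* and *Ebp* right of it in both libraries.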

How the data were processed

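Single cell RNA sequencing (10x Genomics) of 1 WT and 1 *Npc1*-/- islet library was analysed, each labelled as a pool of 3 mice. The deposited matrices hold UMI counts as whole numbers for each barcode, to which the authors applied no normalization. They include barcodes outside the limits used here. The submitters' processing notes name Cell Ranger 3.1.0, Seurat 4.0.3 and mm10.

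The members, gene lists and markers were chosen with earlier results of these data known. Barcodes were filtered and classed as described above. A class without a leading hormone needed at least 3 markers of its list and 2 times the summed share of the next list, limits set after the data were seen. No doublets were removed. Scrublet (scanpy 1.11.5) marked 65 WT (1.40%) and 40 *Npc1*-/- (0.937%) barcodes, and an alternative removed the 317 and 261 with the highest scores. UMIs were summed by class and library. The floor was 5 CPM, with 0.5 counts added for ratios. Intervals are exact Poisson or conditional binomial (scipy 1.17.1) at 95%, and a normal approximation from the counts for differences between classes. A stress-high barcode held at least 0.1% of UMIs in heat shock and immediate early genes. The TMM factor came from edgeR 4.0.16. The procedure was tested on simulated data that held counting error only, so this says nothing on differences between animals or libraries. Alternatives were other scalings, cell filters, hormone shares, floors, weights and subsets. Annotation was GENCODE M21. Named were all 32 members, *Npc1* and genes of the lists called in insulin-leading cells, though not every one. Some listed genes outside the members are not reported here.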

Additional observations from a re-analysis of the deposited data

Results flagged for a closer look

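The direction of some members differed between cell classes, with no interval reaching the median gene on either side, and the differences were not tested. *Hmgcs1* had log2 ratios of 0.53 in insulin-leading, 0.45 in glucagon-leading, 0.59 in somatostatin-leading and 0.77 in PP-leading cells and of -0.34 in endothelial-like cells. *Insig2* stood at 1.02 in mesenchymal-like and -0.45 in somatostatin-leading cells, *Srebf1* at 0.37 in glucagon-leading and -0.52 in endothelial-like cells, and *Fasn* at 0.33 in insulin-leading and -2.09 in macrophage-like cells, the last from 13 and 2 UMIs. In macrophage-like cells *Fasn* passed the floor only through WT, where it was higher.

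Barcodes outside the filters also held insulin-leading cells. Among those with 50000 UMIs or more (153 in WT and 343 in *Npc1*-/-) 11 members were called higher and 0 lower, beside 9.19% and 9.53% of all tested genes. They were *Hmgcs1*, *Idi1*, *Fdft1*, *Lss*, *Cyp51*, *Msmo1*, *Sc5d*, *Insig1*, *Srebf2*, *Scap* and *Elovl6*, of which 6 were also called in the kept cells. Among those with 10% or more mitochondrial UMIs (82 in WT and 60 in *Npc1*-/-) 4 were called higher and 2 lower, beside 3.45% and 4.55%. The higher ones were *Lss* (2.15), *Sc5d* (0.99), *Acaca* (1.48) and *Fads1* (1.82), and the lower ones *Insig2* (-0.998) and *Acly* (-0.56). These barcodes held only 1310968 UMIs in WT and 937869 in *Npc1*-/-, so a gene near 5 CPM rests on few molecules there. The size of such ratios is therefore uncertain, and a member may have passed the floor through 1 library only.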

How the results depend on the processing

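With 1 library per genotype no library could be left out. No paired analysis was possible because each genotype has a single library. In insulin-leading cells each member was recomputed under 16 alternatives, 12 of them planned and 4 chosen after seeing the data. For the 11 called members the sign changed in 3 of 176 values, and for the 21 others, many of them near the median gene, in 41 of 336. The 3 were *Hsd17b7* (-0.024), *Stard4* (-0.54) and *Fasn* (-0.10) in barcodes with 10% or more mitochondrial UMIs. *Fasn* kept its call in 9 of 16 alternatives, *Hsd17b7* in 12, *Stard4* in 13, *Idi1*, *Acaca*, *Elovl6* and *Fads1* in 14, and *Hmgcs1*, *Lss*, *Insig1* and *Srebf2* in 15.

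With plain CPM 7 sterol enzymes were called higher in place of 4, where 17.8% of all genes were called higher in place of 7.46%, and the control genes' median was 0.44. With a floor of 20 CPM the counts were 1 sterol and 1 fatty acid enzyme (median 0.21) in insulin-leading cells, since fewer genes are tested. The control genes *Insig1* and *Srebf2* kept their calls there as well. *Fasn*, the fatty acid enzyme, passed that floor only through *Npc1*-/- (19.7 CPM in WT and 27.0 CPM in *Npc1*-/-). Over all members the counts were 6, 4 and 8 in glucagon-, somatostatin- and PP-leading cells. Beside this 6.54%, 1.77%, 4.16% and 4.37% of all genes tested at that floor were called higher in insulin-, glucagon-, somatostatin- and PP-leading cells. *Ebp* was called lower, as the 1 sterol enzyme, with a hormone share of 20%, a floor of 1 CPM or under 1% *Ppy* and *Pyy*. Barcodes of 50000 UMIs or more gave 7 sterol enzymes and 1 fatty acid enzyme higher (median 0.12). Barcodes rich in mitochondrial UMIs gave 2 sterol enzymes, 0 control genes (1 lower, median 0.0786) and 2 fatty acid enzymes higher and 1 lower. In somatostatin-leading cells a hormone share of 20% gave 0 higher and 0 lower, beside 2.17% and 2.37% of all tested genes.

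Percentages in brackets after a setting are the shares of all tested genes called in the same direction. In endothelial-like cells 5 members were higher under the strict filter of over 2000 genes and under 5% mitochondrial (4.44%). There 1 was higher with a mean over cells (5.72%) or at 20 CPM (4.16%). In stellate-like cells the strict filter gave 0 lower (2.09%) and the mean over cells 0 higher (4.66%). In mesenchymal-like cells 1 was lower with doublets removed (5.10%), plain CPM (5.44%) or no hormone genes (5.56%). In macrophage-like cells 0 were lower under the strict filter (3.96%) or with doublets removed (4.97%), and 1 at 20 CPM (8.71%). With a mean over cells 2 were higher (9.36%) and 5 lower (10.1%). Members highest in insulin-leading cells in both libraries were 3 on plain CPM, 17 without hormone genes, and 5 with no upper UMI limit or a 20% hormone share. The causes were not tested. Depth limits *Scd1*, *Fads2* and *Tm7sf2* and the classes of under 100 barcodes.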
